A study of Mus musculus with 16 samples.

Results

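Heat shock proteins and their closest partners were examined in mouse bone marrow through 10 genes chosen by name: Hspa1a, Hspa1b, Hspa8, Hsph1, Dnajb1, Hsp90aa1, Hsp90ab1, Hspd1, Hspe1 and Hspb1. Every array probe that carried one of these names was taken. There were 15 such probes for 9 of the 10 genes, out of 55681 probes in all, and Hspa1b was not analysed here. Of the 15 probes, 14 exceeded background clearly on 6 or more of the 8 arrays of one group, the filter used here, and were tested together with all other probes that did so, 32689 in number.

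RNA of whole bone marrow was measured in 16 mice, 1 array per mouse. The 8 KO chimeras were lethally irradiated C57BL/6J mice (950 rad) that received, by retro-orbital injection, whole marrow from Adrb1tm1BkkAdrb2tm1Bkk/J donors, which lack the beta-1 and beta-2 adrenergic receptors. The labels give the ratio of knockout to C57BL/6J as 1:4 and a recovery of 2 to 3 months, so the grafted marrow may hold C57BL/6J cells too. The 8 controls were C57BL/6J mice labelled with the same irradiation, and the labels name no donor for them; age and sex are not given in the sources used here. Loss of the receptors, the genetic background of the donors and the grafting itself cannot be told apart in this comparison, and in whole marrow neither can fewer cells of a type and less RNA per cell.

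Heat shock proteins bind unfolded or partly folded proteins and keep them from aggregating until they fold, are degraded or are handed on. A constitutive set (Hspa8, Hsp90ab1, Hspd1, Hspe1) works in every cell, while an inducible set (Hspa1a, Hspa1b, Hspb1, Dnajb1, Hsph1) is switched on within minutes of heat or other protein damage when the transcription factor HSF1 binds heat shock elements, repeats of the bases GAA and their reverse complement TTC, in their promoters. In marrow, chaperones of this kind serve dividing precursors with a high rate of protein synthesis, and the inducible HSP70 is known in human red cell precursors to protect the erythroid factor GATA1.

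Among the heat shock genes a difference between KO chimeras and controls was called for Hspa8 alone, at 2 of its 3 probes. Of the 14 probes tested, 2 rose, 0 fell and 12 did not pass (limma, Benjamini-Hochberg adjusted p under 0.05 over all probes tested; 3 of the 14 had an unadjusted p under 0.05). The 2 that rose are 14.3% of the 14, against a background of 11.4 percent of all tested probes called higher, 12.2 percent called lower and 23.5 percent called in either direction. The share of heat shock probes called higher was thus near that of the array as a whole. The log2 difference (KO chimera minus control) was above 0 at 11 of the 14 probes, with a median of 0.12 against -0.012 over all tested probes. Read at the brightest probe of each gene, 0 of 9 genes passed in limma (1, Dnajb1, had an unadjusted p under 0.05), with a median of 0.083 against -0.019 over 23061 gene names. With the tested probes of each gene averaged, 1 of the 9 passed, Hspa8 (0.57, adjusted p = 0.00205). For 5 of the 9 genes the reading rests on 1 probe.

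**Figure D1:**
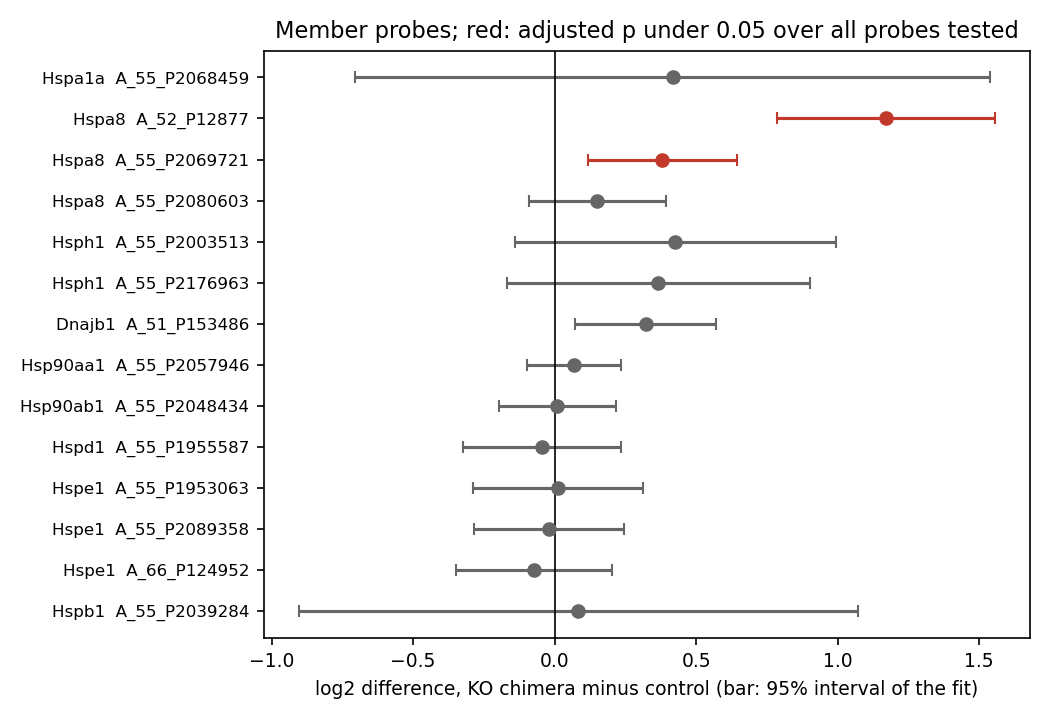
Log2 difference between 8 KO chimeras and 8 controls (x axis, KO chimera minus control) at each of the 14 tested probes, with bars for the 95% interval of the fit and red for an adjusted p under 0.05. The Hspa8 probe A_52_P12877 stood at 1.17 with an interval of 0.79 to 1.56, and the widest intervals were those of Hspa1a (-0.70 to 1.54) and Hspb1 (-0.90 to 1.07).

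Hspa8 encodes HSC70, the constitutive cytosolic member of the HSP70 family, which folds new proteins, uncoats clathrin vesicles and delivers proteins to the lysosome. Its 3 probes lie on chromosome 9 on the plus strand of build mm9, at chr9:40611142-40611201 (A_52_P12877), chr9:40612755-40613050 (A_55_P2069721) and chr9:40613223-40613282 (A_55_P2080603). The span of the second is 296 bases for a 60-base probe, which places it across a splice junction. Probe sequences are shown because the 3 probes are assigned to the same transcript and gave different answers; for the third, bases 1 to 30 are given.
Hspa8 A_52_P12877: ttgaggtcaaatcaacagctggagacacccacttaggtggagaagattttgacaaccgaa
Hspa8 A_55_P2069721: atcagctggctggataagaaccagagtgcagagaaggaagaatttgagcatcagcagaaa
Hspa8 A_55_P2080603: ttgttccacagggacccaaaacaagtaaca

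Levels are given as log2 of the signal over the 75th percentile of the array, so that 0 is the 75th percentile itself. At A_52_P12877 the KO chimeras had a lowest level of 4.72, a median of 5.33 and a highest of 5.74, against a lowest of 3.68, a median of 4.01 and a highest of 4.49 in controls. All 8 KO chimeras lay above all 8 controls, a separation seen at 1 of the 14 heat shock probes and at 6.34 percent of all tested probes. The mean was 5.27 ± 0.45 in KO chimeras and 4.09 ± 0.30 in controls (SD, n = 8 each), a difference of 1.17 ± 0.18 (SE) or 2.25-fold, with a 95% interval of 1.73 to 2.94-fold (limma adjusted p = 1.64e-04). Within each of the 5 slides that held both groups the difference was positive, between 0.87 and 1.14. It was 1.19 among the 8 mice scanned on the first day and 1.15 among the 8 scanned on the second.

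At A_55_P2069721 the KO chimeras ran from 6.70 through a median of 7.14 to 7.56, against 6.59 through 6.74 to 7.05 in controls. The groups overlapped, and 5 of the 8 KO chimeras (1, 2, 3, 4 and 5) lay above the highest control. The difference of 0.38 ± 0.12 (SE) passed with an adjusted p of 0.0348 and a 95% interval of 0.12 to 0.64. This call was near the threshold: it was lost on leaving out any one of KO chimeras 1, 2 and 5 or of controls 1, 2, 5, 6, 7 and 8, with adjusted p between 0.0515 and 0.0694. It was also lost with slide as a fixed block (adjusted p = 0.0785) and without slide 3 (difference 0.25, adjusted p = 0.177). With slide as a random block it was kept (adjusted p = 0.0296). With no filter on dim probes (adjusted p = 0.0736) and with array brightness as a covariate (adjusted p = 0.0858) it was lost. Within scan days the difference was 0.29 (adjusted p = 0.398) and 0.47 (adjusted p = 0.129).

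At A_55_P2080603, the brightest of the 3, the KO chimeras ran from 7.86 through 8.20 to 8.53 and the controls from 7.88 through 8.06 to 8.22. KO chimeras 1, 2, 5 and 8 stood above every control, while KO chimera 3 lay below every control. The difference of 0.15 ± 0.12 (SE, 95% interval -0.091 to 0.39) did not pass (adjusted p = 0.383).

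The probes of Hspa8 therefore differed in how far the groups stood apart, which was tested on the difference between probes within each mouse. The signal of A_52_P12877 minus that of A_55_P2080603 averaged -2.93 in KO chimeras and -3.96 in controls, a gap of 1.02 (exact two-sided permutation test over 8 mice per group, p = 3.11e-04, adjusted p = 4.66e-04 over 3 pairs of probes). A_52_P12877 minus A_55_P2069721 averaged -1.89 in KO chimeras and -2.69 in controls, a gap of 0.79 (exact permutation p = 1.55e-04, the smallest 8 against 8 allow; adjusted p = 4.66e-04). For A_55_P2069721 minus A_55_P2080603 the gap was 0.23 (exact permutation p = 0.0193, adjusted p = 0.0193). This test was chosen after the values were seen. The spread of 1.02 between the differences of its 3 probes exceeded that of 90.8% of the 6435 genes with 2 or more tested probes. Spread tends to grow with the number of probes, and this share is not matched for it. As the probes differ, no single fold change of Hspa8 can be given, and the mean over its probes given above averages unlike values. The difference between groups was smaller the brighter the probe: 1.17, 0.38 and 0.15 at control means of 4.09, 6.78 and 8.05. Whether signal level contributed to this order was not tested. Hspa8 has many near-identical genomic copies, and how far they add to each probe's signal was not tested either.

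**Figure D2:**
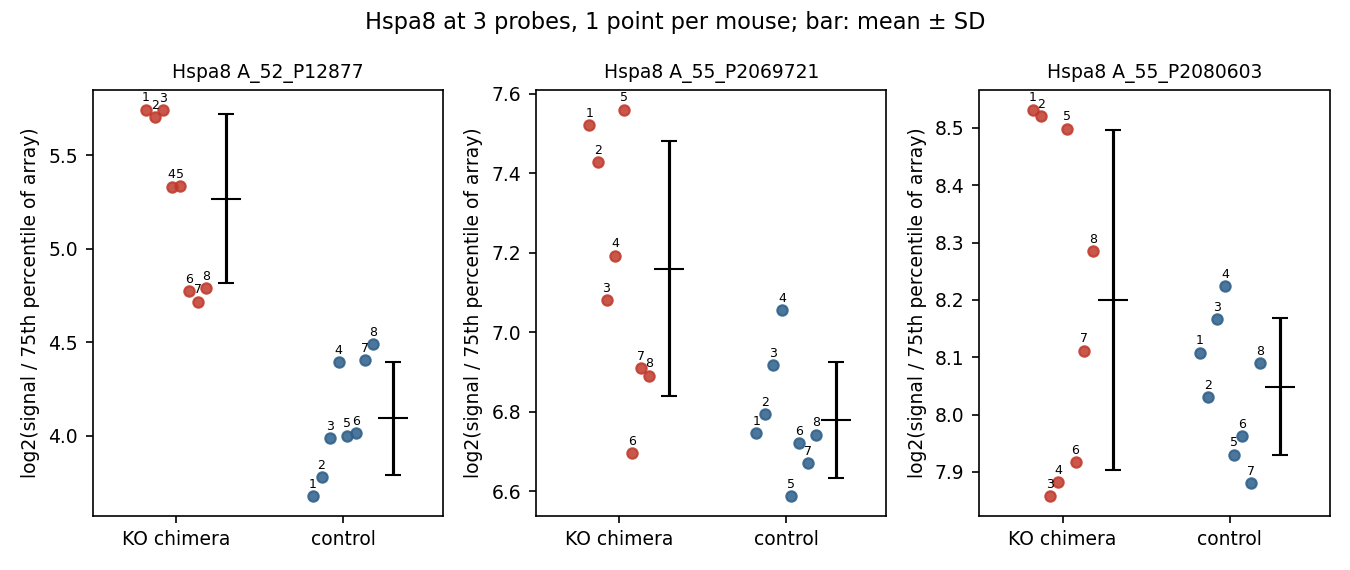
Level of Hspa8 at its 3 probes (y axes, log2 of signal over the 75th percentile of the array, each panel with its own scale) in KO chimeras (left, red) and controls (right, blue), 1 numbered point per mouse with mean and SD beside. At A_52_P12877 the lowest KO chimera (4.72) is above the highest control (4.49), while at A_55_P2069721 and A_55_P2080603 the groups overlap.

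Hspa1a encodes the stress-inducible HSP70, nearly absent from many resting cells and made in large amounts after heat. Its probe, A_55_P2068459, lies at chr17:35107117-35107176 on the minus strand of mm9. Hspa1a and Hspa1b are near-identical neighbours, and whether the probe also takes up Hspa1b transcripts was not tested. The probe is shown because the widest spread between mice in the set was read with it.
Hspa1a A_55_P2068459: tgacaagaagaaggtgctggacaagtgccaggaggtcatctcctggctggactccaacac

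The level of Hspa1a was 4.94, 4.61, 2.90, 3.11, 5.31, 2.75, 1.84 and 2.43 in KO chimeras 1 to 8, and 2.14, 1.87, 3.63, 4.23, 2.35, 3.41, 2.33 and 4.58 in controls 1 to 8. The groups overlapped between 1.87 and 4.58, and 3 of the 8 KO chimeras lay above the highest control. KO chimeras 1, 2 and 5 stood at 4.61 or more and the other 5 at 3.11 or less, and controls 3, 4, 6 and 8 stood at 3.41 or more and the other 4 at 2.35 or less. The SD within groups, 1.16, was larger than that of 99.7% of all tested probes. The mean was 3.49 ± 1.28 in KO chimeras and 3.07 ± 1.03 in controls (SD, n = 8 each), and the difference of 0.42 ± 0.53 (SE) did not pass (limma adjusted p = 0.628). Its 95% interval ran from 0.61 to 2.91-fold.

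The 3 arrays of slide 3 were those of KO chimeras 1 and 5, the highest of their group, and of control 8, the highest of its group. Hspa1a ran from 4.58 to 5.31 there and from 1.84 to 4.61 on the other 5 slides. Within slides the group difference ran from -1.22 to 1.34, positive on 3 of 5. It was 0.15 with slide as a fixed block, 0.31 with slide as a random block and 0.088 without slide 3. Whether slide or the handling of these mice contributed to the spread was not tested.

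Hspb1 encodes HSP27, the small heat shock protein that holds unfolding proteins in oligomers and binds actin. Its probe, A_55_P2039284, lies at chr5:136365366-136365425 on the plus strand, and bases 1 to 30 are shown because it followed Hspa1a from mouse to mouse.
Hspb1 A_55_P2039284: gctcttttgatacatacatttacctgctgt

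Hspb1 stood at 1.78, 1.54, -0.09, -0.12, 2.44, -0.83, -0.67 and -0.28 in KO chimeras 1 to 8, and at 0.28, -0.62, 0.99, 1.35, -0.17, 0.30, -0.24 and 1.22 in controls 1 to 8. KO chimeras 1, 2 and 5 were above every control, and the other 5 were below the control median of 0.29. The within-group SD of 1.02 was larger than that of 99.3% of tested probes. The difference was 0.083 ± 0.47 (SE, 95% interval -0.90 to 1.07, adjusted p = 0.925), and it was -0.35 on the first scan day and 0.52 on the second.

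The mice with the highest Hspa1a were also those with the highest Hspb1, in both groups. KO chimeras 5, 1 and 2 were the 3 highest of their group for both genes, and controls 3, 4, 6 and 8 the 4 highest of theirs. No correlation coefficient between them is given within groups. The reason is a gap, in each group, between a lower and a higher set of Hspa1a levels, as given above. Whether the sets are distinct was not tested. KO chimeras 5, 1 and 2 were also the 3 highest for Dnajb1, for the Hsph1 probe A_55_P2003513 and for the Hspa8 probes A_55_P2069721 and A_55_P2080603. At the other Hsph1 probe and at the Hspa8 probe A_52_P12877, 2 of those 3 mice were among the 3 highest, as for Hsp90ab1. For Hsp90aa1, Hspd1 and the 3 Hspe1 probes 1 of them was. Of the 4 controls highest in Hspa1a, 2 were among the 4 highest for Dnajb1 and for the Hspa8 probe A_55_P2069721. The count was also 2 for both HSP90 genes, for Hspd1 and at 2 Hspe1 probes. It was 3 at the other Hspa8 probes, at both Hsph1 probes and at the other Hspe1 probe. Counts of 2 of 4, and of 1 of 3 among KO chimeras, are about what chance gives. The counts were not compared with those of other probes of the array.

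**Figure D3:**
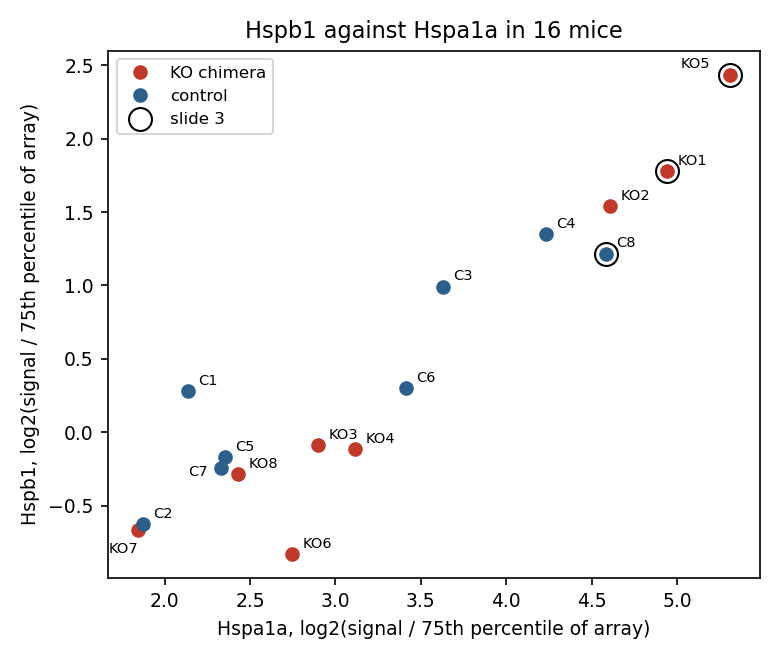
Level of Hspb1 (y axis) against that of Hspa1a (x axis), both as log2 of signal over the 75th percentile of the array, for 8 KO chimeras (red) and 8 controls (blue), with slide 3 ringed. KO chimeras 5, 1 and 2 lie at the upper right with controls 8 and 4, and KO chimera 7 and control 2 at the lower left.

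Promoter sequence was read from RefSeq on build GRCm38.p6, whose coordinates differ from those of the probes, for the 7 of the 10 genes that had an entry; Hspa8, Hsp90aa1 and Hsp90ab1 are named only. The 150 bases before the transcript start are shown for Hspa1a, Hspb1, Hsph1 and Dnajb1 and for Hspe1, whose upstream region is shared with Hspd1, with capitals marking matches to a heat shock element of at least 2 units, GAANNTTC or TTCNNGAA, the 2 being searched for separately and allowed to overlap. Hspa1a lies at chr17:34972157-34972306 on the minus strand, Hspb1 at chr5:135887769-135887918 on the plus strand, Hsph1 (the upstream of 2 entries) at chr5:149636337-149636486 on the minus strand, Dnajb1 (the upstream of 2 entries) at chr8:83608025-83608174 on the plus strand and Hspe1 at chr1:55087998-55088147 on the plus strand.
Hspa1a: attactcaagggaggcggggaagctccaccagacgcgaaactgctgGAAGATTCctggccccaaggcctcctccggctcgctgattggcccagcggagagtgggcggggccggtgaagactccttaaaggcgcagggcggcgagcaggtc
Hspb1: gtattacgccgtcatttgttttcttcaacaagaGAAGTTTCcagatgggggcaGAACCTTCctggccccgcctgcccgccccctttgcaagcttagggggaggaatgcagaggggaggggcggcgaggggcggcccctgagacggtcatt
Hsph1: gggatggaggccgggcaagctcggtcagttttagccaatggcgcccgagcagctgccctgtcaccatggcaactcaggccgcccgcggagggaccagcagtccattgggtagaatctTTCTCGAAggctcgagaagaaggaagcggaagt
Dnajb1: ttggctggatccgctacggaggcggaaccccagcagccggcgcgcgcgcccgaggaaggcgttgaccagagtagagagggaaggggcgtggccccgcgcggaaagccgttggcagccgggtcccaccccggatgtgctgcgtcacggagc
Hspe1: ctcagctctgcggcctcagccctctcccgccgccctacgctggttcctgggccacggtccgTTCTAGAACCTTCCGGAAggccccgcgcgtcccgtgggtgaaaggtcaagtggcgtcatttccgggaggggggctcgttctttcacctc

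The Hspa1a window held 1 match, 104 bases before the start, and the Hspa1b window differed from it at 1 of 150 bases and held the same match. The Hspb1 window held 2 matches, 117 and 97 bases before the start, and the Hsph1 window 1, at 33 bases. The Hspe1 window held the longer form of 3 or more units in a stretch that begins 89 bases before the start and that also lies in the window of one Hspd1 entry on the other strand, as the 2 genes are transcribed away from each other. A match of 2 units was present in the 250 bases before the start of 12.8% of 32851 promoters, and one of 3 units (GAANNTTCNNGAA on either strand) in 0.466%. Neither Dnajb1 entry held a match in its 150 bases, and the window of the downstream entry lies inside the gene, past the start of the upstream one. These matches describe the letters of the windows and say nothing about binding in these mice.

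Dnajb1 encodes HSP40, which delivers clients to HSP70 and triggers its ATP hydrolysis. It was read by probe A_51_P153486 at chr8:86135660-86135719 on the plus strand. Its level ran from 5.35 through a median of 5.58 to 6.05 in KO chimeras, against 4.97 through 5.24 to 5.70 in controls. All 8 KO chimeras were above the control median, and KO chimeras 1, 2 and 5 were above the highest control. The difference of 0.32 ± 0.12 (SE, 95% interval 0.073 to 0.57) did not pass (adjusted p = 0.0582). It lay just beyond the threshold: it passed under 6 of 16 other ways of processing and on leaving out KO chimera 4, KO chimera 6, control 4 or control 8 (adjusted p from 0.0276 to 0.0453), and without slide 3 it was 0.25 (adjusted p = 0.138).

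Hsph1 encodes HSP110, the nucleotide exchange factor that resets HSP70 after each folding cycle. Its 2 probes lie on the minus strand at chr5:150420110-150420169 (A_55_P2003513) and chr5:150419744-150419803 (A_55_P2176963). At the brighter, A_55_P2176963, levels ran from 1.84 through 2.55 to 3.77 in KO chimeras, against 1.43 through 2.16 to 3.18 in controls. KO chimera 5 alone lay above the highest control. The differences of 0.37 ± 0.25 (adjusted p = 0.332) and, at A_55_P2003513, 0.43 ± 0.27 (SE, adjusted p = 0.283) did not pass, and the probes differed from each other by 0.060.

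Neither gene of the HSP90 pair, the cytosolic chaperones of kinases and steroid receptors, passed the test. Hsp90ab1, the constitutive form, was read at chr17:45704788-45704847 on the minus strand. It ran from 6.68 through 6.99 to 7.40 in KO chimeras and from 6.77 through 6.93 to 7.18 in controls, a difference of 0.010 with a 95% interval of 0.87 to 1.16-fold (adjusted p = 0.957). Hsp90aa1, the inducible form, was read at chr12:111929248-111929307 on the minus strand. It ran from 5.71 through 5.95 to 6.06 in KO chimeras and from 5.62 through 5.85 to 6.05 in controls, a difference of 0.068 with an interval of 0.93 to 1.18-fold (adjusted p = 0.590). The groups overlapped for both. Hsp90aa1 had the tightest values of the set, with an SD larger than that of only 5.59% of tested probes. A second Hsp90aa1 probe, A_55_P2352652, was not well above background on any array and was not tested in the fit.

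Neither gene of the mitochondrial chaperonin passed. Hspd1 encodes HSP60, the barrel in which imported proteins fold, and Hspe1 encodes HSP10, its lid; both are encoded in the nucleus. Hspd1, at chr1:55134697-55134756 on the minus strand, ran from 4.79 through 5.08 to 5.47 in KO chimeras and from 4.57 through 5.12 to 5.49 in controls. The difference was -0.044 with an interval of 0.80 to 1.18-fold (adjusted p = 0.856). KO chimeras lay within the range of controls.

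Hspe1 had 3 probes on the plus strand, at chr1:55147620-55147946 (A_55_P1953063, across a splice junction), chr1:55148023-55148082 (A_55_P2089358) and chr1:55148026-55148085 (A_66_P124952). The last 2 are offset by 3 bases and share 57 bases, with 1 difference, C15T, counted from base 1 at the 5′ end of A_55_P2089358. They are shown over 30 shared bases with the differing base in capitals.
Hspe1 A_55_P2089358: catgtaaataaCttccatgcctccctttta
Hspe1 A_66_P124952: catgtaaataaTttccatgcctccctttta

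The differences between groups at these 2 were -0.021 (adjusted p = 0.932) and -0.072 (adjusted p = 0.744), and at the junction probe 0.011 (adjusted p = 0.968). At A_66_P124952 the level ran from 4.38 through 4.71 to 5.35 in KO chimeras and from 4.48 through 4.90 to 5.23 in controls. KO chimera 5 was the highest and KO chimera 6 the lowest of their group at all 3 probes, and control 5 the lowest of its group at all 3.

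**Figure D4:**
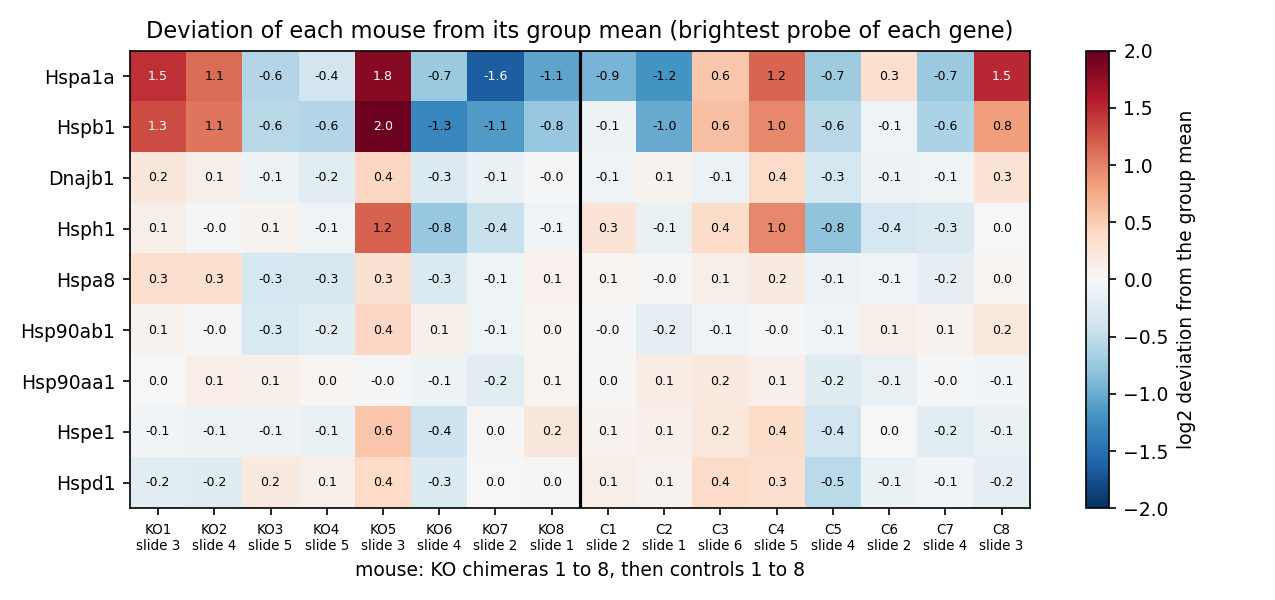
Log2 deviation of each mouse (columns, KO chimeras left of the line and controls right, with slide numbers) from the mean of its group, for the 9 genes at their brightest probe (rows). Hspa1a and Hspb1 span the widest range, from KO chimera 7 and KO chimera 6 at the low end to KO chimera 5 at the high end, and Hsp90aa1 the narrowest.

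Which genes of the array varied most like Hspa1a, Dnajb1 and Hsph1 of the inducible set was read from each mouse's deviation from its group mean. This covered 16 mice and 22292 genes, each at its brightest probe, against the mean deviation of Hspa1a, Dnajb1 and Hsph1. These are descriptions: the points share arrays, slides and scaling, and the mean includes Hspa1a with its lower and higher sets. The deviations were averaged without scaling, so Hspa1a weighs most (within-group SD 1.16, against 0.55 for Hsph1 and 0.23 for Dnajb1). Its own r with the mean was 0.95. Each r is also given without KO chimera 5 and control 4, the 2 mice farthest from the median. Other mice of the higher sets remain, so the gap in Hspa1a is not removed. Hspb1, which is not in that mean, had the highest Pearson r of all genes, 0.96 (0.95 without those mice). Given the weight of Hspa1a in the mean, this r largely repeats the likeness of Hspb1 to Hspa1a described above. Hspa8 had an r of 0.72 at rank 36 (0.65 without them), at the probe A_55_P2080603, where no group difference was called. Its other probes were not read in this way. Hspe1 (0.60 at rank 208) and Hspd1 (0.40 at rank 1215) dropped to 0.21 and 0.045 without those mice, so their likeness rests on them. Hsp90ab1 had an r of 0.53 (0.36 without them) and Hsp90aa1 one of 0.38 (0.44). Outside the set, the 5 most alike were Onecut2, a transcription factor gene of liver and neurons (0.90), 2 probes without a gene name (A_55_P1968304 at 0.89 and A_55_P2008244 at 0.87), a non-coding RNA probe (A_30_P01021891, 0.84) and Gm5067 (0.81); without those mice their r ran from 0.74 to 0.88.

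The rest of the chaperone system was read in 5 lists of 69 genes, 65 of them tested, each at its brightest probe. Of the 65, 9 rose (13.8%), 3 fell (4.62%) and 53 did not pass, against 10.3 percent of all gene names called higher and 12.1 percent called lower. Of 24 cochaperones and other heat-inducible genes, 4 rose and 2 fell, with a median of -0.015. Bag3, the cochaperone that routes HSP70 clients to autophagy, rose by 0.58 ± 0.13 (SE, adjusted p = 0.00314), standing at 0.76 to 1.64 in KO chimeras against 0.42 to 0.99 in controls. Dnajb4, an HSP40 of muscle and other tissues, rose by 0.66 ± 0.16 (adjusted p = 0.00621), and Hspa2, an HSP70 best known from the testis, by 0.45 ± 0.12 (adjusted p = 0.0126). The 3 others called were named after their values were seen: Dnaja1, an HSP40, was higher by 0.40, while the HSP90 cochaperones Fkbp4 (-0.35) and Cdc37 (-0.23) were lower.

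In the list of heat shock factors 4 genes were tested: Hsf1, Hsf2, Hsf4 and Hsbp1, whose product binds a factor and is not one. Hsf3 and Hsf5 were not tested. Of the 4, 0 rose and 0 fell in limma (1 had an unadjusted p under 0.05), and likewise with the probes of a gene averaged. Hsf2 had the smallest p, with a difference of 0.31 ± 0.12 (SE, adjusted p = 0.0697). Of 15 endoplasmic reticulum chaperone genes, 3 rose and 1 fell, with a median of 0.11. Dnajc3, an HSP40 that holds back the kinases PERK and PKR, fell by 1.24 on the log2 scale (SE 0.10, adjusted p = 1.23e-07), the smallest p of the 65 genes. It stood at -0.18 to 0.56 in KO chimeras against 1.21 to 1.61 in controls, with no overlap, at its 1 tested probe. Dnajb9, a reticulum HSP40 induced by unfolded proteins, rose by 0.45 ± 0.12 (adjusted p = 0.0100) and by 1.05 at its other probe, and Manf, a secreted reticulum stress protein, rose by 0.44 ± 0.12 (adjusted p = 0.0144). The third that rose, Hyou1, the HSP110 of the reticulum, was named after its value of 0.43 was seen (adjusted p = 0.0421).

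Of 10 mitochondrial chaperone genes 1 rose, Grpel2, the exchange factor of mitochondrial HSP70, by 0.22 ± 0.074 (SE, adjusted p = 0.0370), while its other probe stood at 0.19 and was not called, and the mean of both did not pass (adjusted p = 0.0552). Of 12 genes of the cytosolic chaperonin and prefoldin 1 rose, the prefoldin subunit gene Pfdn2, by 0.52 ± 0.12 (adjusted p = 0.00417), with KO chimeras at 1.58 to 2.49 and controls at 1.06 to 1.49. With slide 3 left out 5 of the 65 genes rose and 4 fell.

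**Figure D5:**
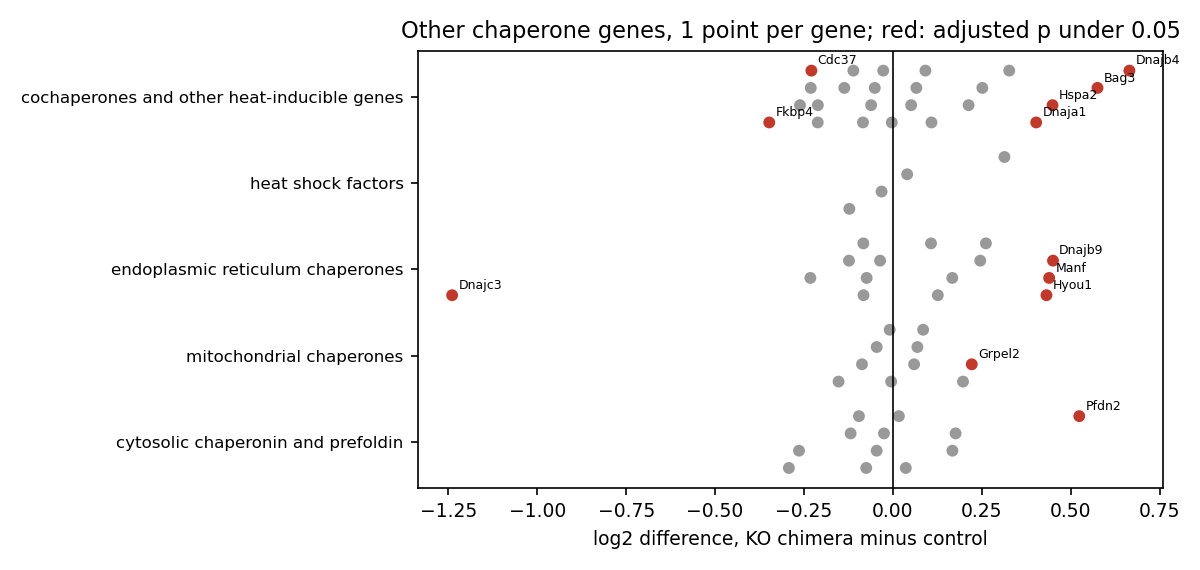
Log2 difference, KO chimera minus control (x axis), of 65 other chaperone genes at their brightest probe, by list (y axis; points within a list are spread vertically for legibility), with red for an adjusted p under 0.05. In red, 9 genes lie right of 0 and 3 left of it, Dnajc3 farthest at -1.24.

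Of 14 immediate early genes, which growth factors and stress induce within minutes, 6 rose, 0 fell and 8 did not pass, against 10.3 percent of all gene names called higher and 12.1 percent called lower. Ier2 (1.22 ± 0.11), Atf3 (1.44 ± 0.17) and Dusp1 (0.81 ± 0.11, SE) had the smallest p. The summed signal of the list was 976 to 1438 times the 75th percentile in KO chimeras, against 643 to 1079 times in controls. Its part in the Hspa8 difference was not tested.

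Defining markers of neutrophil precursors (8 of 8), the erythroid lineage (7 of 7) and the B lineage (7 of 7) were above background on every array, as the tissue label has it. Against the same 12.1 percent of gene names called lower, of 6 megakaryocyte markers 0 rose and 3 fell, with a summed signal of 18.1 to 45.5 in KO chimeras and 30.9 to 63.6 in controls, and of 5 T cell markers 0 rose and 2 fell (10.8 to 18.1 against 12.1 to 25.3); their part in the heat shock values was not tested. Of the B lineage markers 1 rose, and the neutrophil and erythroid lists had median differences of 0.087 and -0.10. The targeted gene Adrb1 differed by -0.00041 ± 0.11 (SE, adjusted p = 0.999) at its brighter probe and by 0.95 ± 0.30 (adjusted p = 0.0277) at its dimmer one. The position of the deletion relative to both probes is not known here, and neither serves as a check of the genotype. Array brightness, as the 75th percentile of signal, was 127 to 545 for KO chimeras against 231 to 558 for controls (exact permutation test, two-sided, p = 0.232 with 8 mice a group). KO chimera arrays had 27755 to 37087 probes clearly above background and control arrays 29292 to 38743, with 0 saturated spots. The number of arrays limits the precision.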

How the data were processed

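Total RNA of bone marrow from 16 mice, labelled with Cy3, was hybridised to 1-colour Agilent arrays, per the labels' protocols. Agilent Feature Extraction read the spots, in version 10.7 by the submitters' processing notes and in version 10.1.1.1 by the header blocks. What the scanner files give, per the file headers, is linear spot intensity after background subtraction by that software. The authors' value table holds log2 values; each column matched its own array at r = 0.991 or more, and it served as an alternative.

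Each array's processed signal was scaled to its 75th percentile (control spots left out) before taking log2. Outlier spots were left out and spots of a probe averaged. Probes well above background on at least 6 of 8 arrays of a group entered 1 limma fit (version 3.58.1, R 4.3.3), two-sided, with Benjamini-Hochberg adjustment over all probes and calls at an adjusted p below 0.05. A positive difference means higher in KO chimeras. Groups and numbers come from sample titles. The labels describe each sample as a separate animal.

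The members and lists were chosen with earlier results of these data known. Named genes are the members, the 3 called genes of smallest p per list (the 1 smallest where none was called) and the 5 genes most alike. Gene names and probe positions (mm9) are those of the array design; no exon annotation of that build was used, and Hspa1b was not analysed here. There were 6 slides, 5 with both groups, and 2 scan days, each with 4 KO chimeras and 4 controls. Same-numbered mice did not deviate together (r from -0.19 to 0.19), so the values showed no pairing by number, and the main fit used none. A pairing that leaves no trace in such correlations cannot be seen in this way.

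On simulated data for this comparison over 31740 probes, 50 probes were changed at each of 4 sizes on the log2 scale. The test recovered 12 of those changed by 0.5, 46 of those changed by 1, 50 of those changed by 2 and 42 of those changed by -1, and made 4 false calls. The simulated noise was normal and independent between probes and mice, without slide effects. Far fewer probes were changed than were called in the real data, so these counts need not hold there. Alternatives were quantile normalization, normexp, the authors' values, other filters, slide, scan day, replicate number and brightness as terms, each scan day alone, 1 probe per gene, the mean of the probes, a variance trend, outlier spots kept in and leaving out each mouse. The fit without slide 3 and the test between Hspa8 probes were added after seeing the data.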

Additional observations from a re-analysis of the deposited data

Results flagged for a closer look

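At the Hsph1 probe A_55_P2176963, KO chimera 5 stood far above the other 7 KO chimeras, at 3.77 on the log2 scale relative to the 75th percentile of the array. The nearest KO chimera was at 2.71 and the lowest at 1.84, so that the gap to the nearest made up 0.548 of the whole range, above Dixon's 95% critical value for 8 samples. Chance marks about 1 in 20 groups in this way, and 1 of 30 groups of heat shock probe values was marked. The other Hsph1 probe read the same mouse highest too, at 2.51. Neither Hsph1 probe passed the test with or without KO chimera 5. Without it the difference between KO chimeras and controls was 0.20 in place of 0.37 at A_55_P2176963 and 0.25 in place of 0.43 at A_55_P2003513, and without slide 3 it was 0.15 and 0.18.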

How the results depend on the processing

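The rise of the Hspa8 probe A_52_P12877 passed in all 15 other ways of processing (1.01 to 1.20, adjusted p from 7.14e-05 to 0.0268) and on leaving out each of the 16 mice (1.104 to 1.25). Of the 14 heat shock probes, 1 rose instead of 2 with no filter on dim probes, with slide as a fixed block and on scan day 1 alone. The same held on scan day 2 alone, with brightness as a covariate and without slide 3 (added after seeing the data). With 1 probe per gene 0 rose. With quantile normalization, normexp, the authors' values, slide as a random block, scan day as a covariate and a variance trend 3 rose, Dnajb1 being added. The range on leaving out a mouse was 1 to 3. With the replicate number as a block 1 rose (A_55_P2069721 then had an adjusted p of 0.0581), 7012 of all probes were called, and 7 genes of the chaperone lists rose and 2 fell; 1 of the 8 KO chimeras (4) correlated best with the control of its own number. Over all probes 7696 were called, 2453 on scan day 1 alone and 3459 on scan day 2 alone, with 4 mice per group, and 6604 to 7947 on leaving out a mouse. Of the chaperone lists 9 genes rose, 0 on scan day 1 alone, 1 on scan day 2 alone, 5 without slide 3 and 6 to 10 on leaving out a mouse. In the main fit 3 fell, against 1 with slide as a fixed block, 1 on scan day 1, 1 on scan day 2 and 3 to 4 on leaving out a mouse. Over all other ways of processing 0 to 12 rose, the 12 with slide as a random block, and 1 to 4 fell. Signs turned only for differences that passed in no setting. Hspb1 stood at -0.080 with slide as a fixed block (0.012 as a random block), -0.35 on day 1, -0.10 with brightness and -0.34 without slide 3. Hsp90ab1 stood at -0.0036 with slide as a fixed block (0.007 as a random block), -0.080 on day 1 and -0.043 without slide 3. Hspa8 A_55_P2080603 stood at -0.0061 on day 1. Hspd1 stood at 0.038 on day 2, Hspe1 A_55_P1953063 at -0.068 on day 1 and -0.069 without slide 3, A_55_P2089358 at 0.0053 with normexp and 0.094 on day 2, and A_66_P124952 at 0.10 on day 2. On leaving out a mouse, Hspe1 A_55_P1953063 ran from -0.065 to 0.064, A_55_P2089358 from -0.11 to 0.036, Hspd1 from -0.12 to 0.010, Hspb1 from -0.20 to 0.27 and Hsp90ab1 from -0.050 to 0.053. The causes were not tested, beyond the fewer mice of the fits by day and by slide. Correlations of Hspa1a with each other member within a group, also with the 2 farthest mice left out, are not given because of the gap in its levels. Signal near background kept the second Hsp90aa1 probe out of the fit.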
